A study of Mus musculus with 416 samples.

Results

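The mouse major histocompatibility complex (MHC) is described here by when its DNA was replicated in single cells of early embryos. Its members were the 50-kb bins of chromosome 17 between positions 33900001 and 37300000 (GRCm38) that had at least 10 measured cells in all 6 groups. There were 68 such bins, out of 46015 bins that passed the same filter over chromosomes 1 to 19. The 8 listed genes, H2-K1, H2-DMb1, H2-Aa, H2-D1, H2-Q6, H2-Q10, H2-T23 and H2-M3, were each read in the bin that holds the gene's midpoint, and these were 8 different bins.

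Embryos were of the cross (C57BL/6J xCBA) x DBA/2J, and every group carried this genotype. At 17 to 18 h after hCG, zygotes were injected with siRNA at 20 µM, either a control (siCont) or one targeting Rif1 (siRif1), and cells were collected at the 4-cell, 8-cell and morula stages. The siCont groups held 49 4-cell, 60 8-cell and 44 morula cells, and the siRif1 groups held 51, 50 and 45. One of the 51 siRif1 4-cell cells had no measured bin in the MHC, which left 50. Which embryo, litter or batch a cell came from is not in the labels, so each group was treated as 1 sample and no difference between groups was tested. Batch and group cannot be told apart. Exact Clopper-Pearson 95% intervals are given on shares of cells, and they cover counting error only. The knockdown of Rif1 was not measured in the files used here, and the state of the DNA carries no marker of embryonic stage against which the labels could be checked.

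Class I molecules, such as those encoded by H2-K1 and H2-D1, carry peptides from inside the cell to the cell surface, where CD8+ T cells read them. Class II molecules, such as the H2-A pair, carry peptides from ingested proteins and are made mainly by dedicated antigen-presenting cells. The class III stretch between them holds complement, heat shock and tumour necrosis factor genes. DNA is copied in a set order during S phase, with gene-dense stretches usually early. RIF1 is known to hold back origins in late-replicating DNA by bringing protein phosphatase to them.

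To show the letters that H2-K1 and H2-Q6 share at opposite ends of the class II and III stretch, the 180 bases before an annotated start are given for 1 gene of each of 4 parts, 5′ to 3′ on the gene's own strand, from RefSeq (GRCm38.p6). They are H2-K1 (chr17:34000348-34000527, minus strand), H2-Aa (chr17:34287824-34288003, minus strand), H2-Q6 (chr17:35424670-35424849, plus strand) and H2-M3 (chr17:37270054-37270233, plus strand). Capitals mark the longest runs shared by H2-K1, H2-D1 and H2-Q6 (ACAGGGTTCAGGCAAAGTCTT and GGCTGGGGATTCCCCATCTCC, the latter across the known kappa B site of class I promoters). They also mark the longest run shared by these and H2-Q10 (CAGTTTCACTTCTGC, across the known interferon response element), and CCAAT and TGACG. Each was searched on both strands, so that ATTGG and CGTCA are marked too. In H2-Aa TGACG and its complement overlap in 1 run. The first of the runs lies outside the 180 bases shown for H2-Q6. H2-K1 has 2 entries, of which the first is shown. The bases shown for H2-K1 lie within the gene's annotated span (chr17:33996012-34000619).
H2-K1: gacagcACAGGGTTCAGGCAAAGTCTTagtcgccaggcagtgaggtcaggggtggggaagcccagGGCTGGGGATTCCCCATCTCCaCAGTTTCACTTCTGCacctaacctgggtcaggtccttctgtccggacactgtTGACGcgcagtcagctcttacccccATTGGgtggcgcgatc
H2-Aa: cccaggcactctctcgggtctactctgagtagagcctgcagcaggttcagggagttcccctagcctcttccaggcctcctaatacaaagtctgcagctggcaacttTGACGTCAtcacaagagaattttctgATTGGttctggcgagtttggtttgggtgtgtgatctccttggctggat
H2-Q6: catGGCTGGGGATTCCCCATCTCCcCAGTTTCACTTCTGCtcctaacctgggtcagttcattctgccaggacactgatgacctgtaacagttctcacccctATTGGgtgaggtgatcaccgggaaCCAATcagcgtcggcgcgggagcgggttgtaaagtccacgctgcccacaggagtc
H2-M3: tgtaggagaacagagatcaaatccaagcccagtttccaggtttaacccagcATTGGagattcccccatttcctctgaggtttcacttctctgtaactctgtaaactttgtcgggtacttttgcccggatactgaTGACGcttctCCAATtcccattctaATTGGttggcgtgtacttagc

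Over the 250 bases before the start, ACAGGGTTCAGGCAAAGTCTT was in 6, GGCTGGGGATTCCCCATCTCC in 4 and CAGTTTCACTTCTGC in 7 of 32851 RefSeq entries. The genes were H2-K1, H2-D1 and H2-Q6 for each of them, with H2-Q4 and H2-Q7 for the first and the last, and H2-Q10 for the last. The runs were read off these class I sequences, so that class I genes hold them is no separate finding. CCAAT was in 33.8% and TGACG in 17.8% of all entries. The timing tables resolve 50 kb, so the values below describe the surroundings of a gene and not its promoter.

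The MHC was divided by position into the H2-K end (3 bins, chr17:33900001-34050000), the class II part (7 bins, chr17:34050001-34400000), the class III part (17 bins, chr17:34400001-35250000), the class I H2-D/H2-Q part (8 bins, chr17:35250001-35650000) and the distal part (33 bins, chr17:35650001-37300000). The distal part was split into H2-T (12 bins) and H2-M (21 bins, from 36250001). These names go by position. The first bin with H2-T genes is chr17:36000001-36050000, and the bins of the H2-T part before it hold other genes, such as Ddr1, Flot1 and Tubb5, or none. The region held 172 protein-coding genes, or 50.6 per Mb, against 8.43 per Mb over all used bins. Density was 48.6 genes per Mb in class II, 70.6 in class III, 37.5 in H2-D/H2-Q, 46.7 in H2-T and 36.2 in H2-M. Promoter entries matched for 151 of the 172 genes. The median CpG count of these 250 bases was 16.5 at the H2-K end, 3 in class II and 2 in H2-M, against 10 over all protein-coding genes.

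A bin's replicated share is the percentage of measured cells in which the bin had state 1. State 1 was read as replicated because bins with a gene midpoint had a higher mean share of it than other bins in all 6 groups. The mean share over all used bins was 46.5% in siCont and 50.5% in siRif1 cells at the 4-cell stage, 49.2% and 43.02% at the 8-cell stage, and 49.4% and 49.98% in morulae. Shares were therefore centred on that mean, and a shift is the centred siRif1 share minus the centred siCont share, in percentage points, negative where the bin was relatively later in siRif1 cells. Cells of the groups were also not at like points of S phase. The siRif1 8-cell group held no cell above 66.5% replicated, while the other 5 groups reached 81.9 to 98.5%. The shortest run of 1 state away from chromosome ends was 5 bins in every group and the median run was 24 to 29 bins, so neighbouring bins and the genes in them are not separate measurements.

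In siCont embryos the MHC was not replicated as 1 unit. At the 4-cell stage the share was highest in H2-D/H2-Q, with a mean of 61.99% over its bins (range 61.2 to 63.3%), and lowest in H2-M, with a mean of 18.2% (range 8.16 to 26.5%). Class II lay between them at 41.4%. The 8-cell means were 67.5% in H2-D/H2-Q, 54.3% in class II and 35.2% in H2-M. In siCont morulae class II, at 69.8%, had a higher mean share than H2-D/H2-Q, at 66.2%, and H2-M stood at 37.7%. More than 50% of the part's bins were replicated in 31 of 44 cells for class II and 29 of 44 for H2-D/H2-Q. Their intervals, 54.8 to 83.2% and 50.1 to 79.5%, overlapped widely, so no change of order is read from this.

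After siRif1 H2-M lay closer to class II and to H2-D/H2-Q at each stage. In morulae, however, class II and H2-D/H2-Q lay further apart than in siCont. Class II had mean shares of 32.9, 25.7 and 47.9% at the 4-cell, 8-cell and morula stages. H2-D/H2-Q had 51.8, 35.5 and 58.3%, and H2-M had 31.2, 27.1 and 43.7%. The spread of the share over the 68 bins, as an SD, was 16.6, 12.9 and 13.6 points in siCont and 10.3, 6.61 and 7.74 points in siRif1 at the 3 stages. The 8-cell siRif1 shares ran only from 16 to 36%, against 18.3 to 70% in siCont. The SD over all used bins was 13.7, 19.8 and 25.8 points in siCont and 14.02, 14.7 and 17.3 in siRif1, so at the 4-cell stage the narrowing over the MHC had no counterpart in the genome-wide SD. Across the 68 bins, the siCont and siRif1 shares had Pearson correlations of 0.78, 0.54 and 0.36 at the 3 stages, which is a description over neighbouring bins of the same cells.

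**Figure D1:**
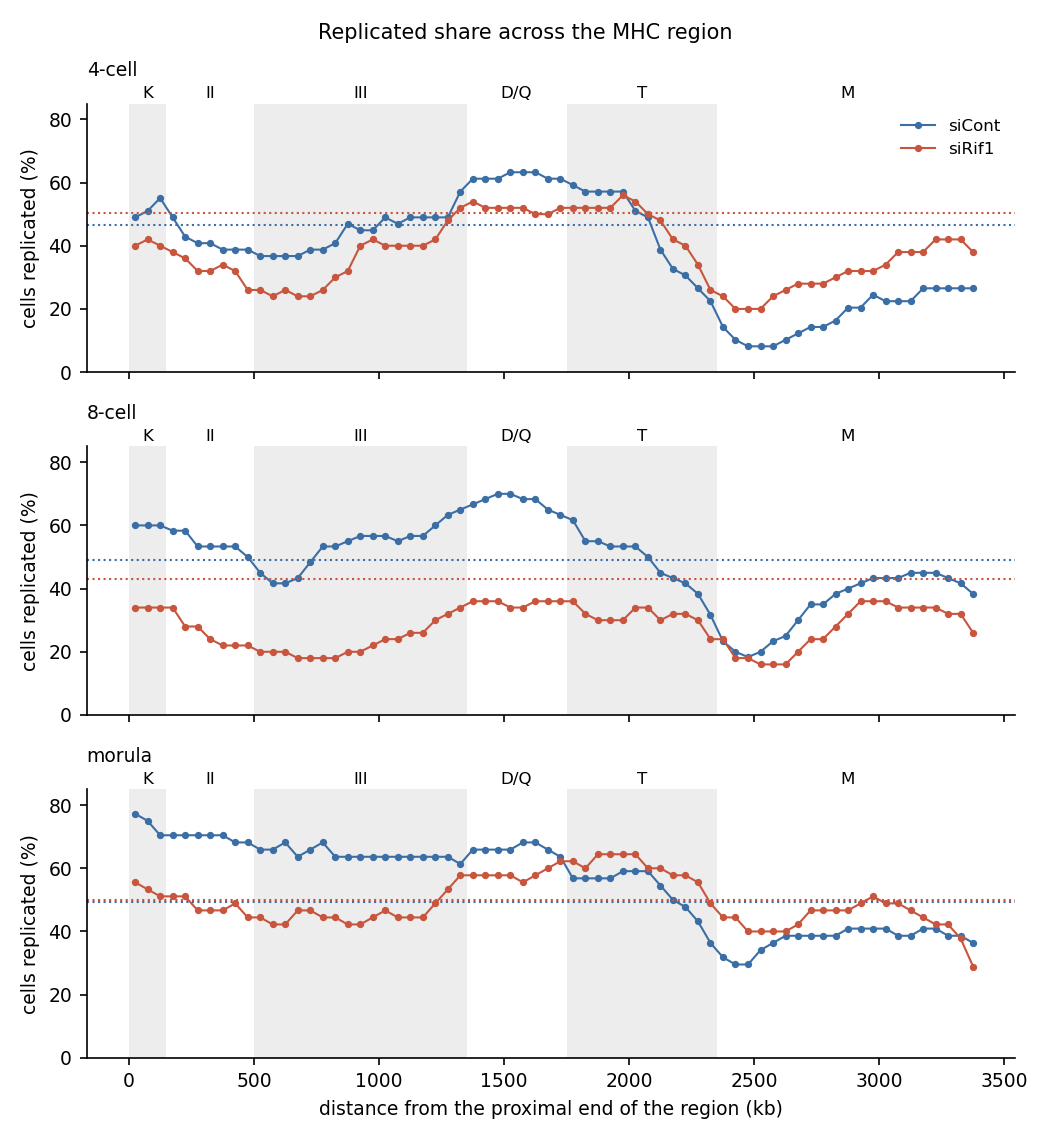
Replicated share (percent of measured cells, vertical axis) of each of the 68 bins against distance from the proximal end of the region (kb), in siCont (blue) and siRif1 (red) cells at the 3 stages. Dotted lines are each group's mean over all used bins, and grey bands separate the parts. At the 8-cell stage the siRif1 points lie between 16 and 36%, while the siCont points run from 18.3 to 70%.

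Relative to the genome mean, the MHC from H2-K1 to H2-Q10 was later in siRif1 than in siCont cells at all 3 stages. The mean shift of the H2-M part was negative only at the 8-cell stage, at -1.84 points with 16 of 21 bins negative. Mean shifts of the class II part were -12.5, -22.4 and -22.5 points at the 4-cell, 8-cell and morula stages. Those of the class III part were -13.0, -24.3 and -19.1 points, and those of the H2-K end -14.9, -19.8 and -21.5 points. H2-D/H2-Q shifted by -14.2 and -25.8 points at the first 2 stages but by -8.45 points in morulae, a value that fell in size to -1.61 with percentile ranks and -0.81 with logistic midpoints (the percent of the genome replicated at which a part reached 50%). Such midpoints turned the 8-cell sign in class II and class III, to 64.2 and 61.3 points, where the fitted siRif1 curves fell as more of the genome was replicated. All 35 bins from the H2-K end to H2-D/H2-Q had a negative shift at each stage, beside 50.2, 47.9 and 50.9% of all used bins. The MHC is gene-dense, and of all protein-coding genes 59.6, 71.9 and 74.8% had a negative shift.

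The distal part gave other values. Its mean shift was 4.98 points at the 4-cell stage, -5.21 points at the 8-cell stage and 5.79 points in morulae. The 8-cell value was -11.1 points in H2-T and -1.84 in H2-M. Within the H2-T part it was -19.5 points in the bin of Ddr1, -8.82 in that of H2-T23 and -2.15 in that of H2-T3. The H2-T mean thus rests largely on bins without an H2-T gene. At the 4-cell stage all 21 H2-M bins had a positive shift, with a mean of 9.15 points, beside 49.8% of all used bins. In morulae H2-T was positive in 12 of 12 bins (6.38 points) and H2-M in 19 of 21 (5.45 points), beside 49.1%. At the 8-cell stage 0 of 12 H2-T and 5 of 21 H2-M bins were positive, beside 52.1%. The signs of the H2-M shifts at the 8-cell and morula stages changed under some alternative settings, with ranges of -10.4 to 2.82 and -0.94 to 10.3 points.

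Over the whole MHC the mean shifts were -4.45, -14.8 and -6.23 points. At least 20 points later were 0 of the 68 bins at the 4-cell stage, where 1.24% of all used bins were, 26 at the 8-cell stage, against 6.43%, and 12 in morulae, against 5.6%. Of all protein-coding genes, 3.07, 18.2 and 9.98% lay in bins at least 20 points later, and the MHC is gene-dense. The 26 bins of the 8-cell stage were 5 of class II, 13 of class III and all 8 of H2-D/H2-Q. Those of morulae were 2 of the H2-K end, 4 of class II and 6 of class III. No bin was at least 20 points earlier at any stage, against 1.36, 3.95 and 6.41% of all used bins. With cells between 20 and 80% replicated the count later was 22 in morulae and 2 at the 4-cell stage. At a threshold of 30 points it was 1 at the 8-cell stage and 0 in morulae.

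**Figure D2:**
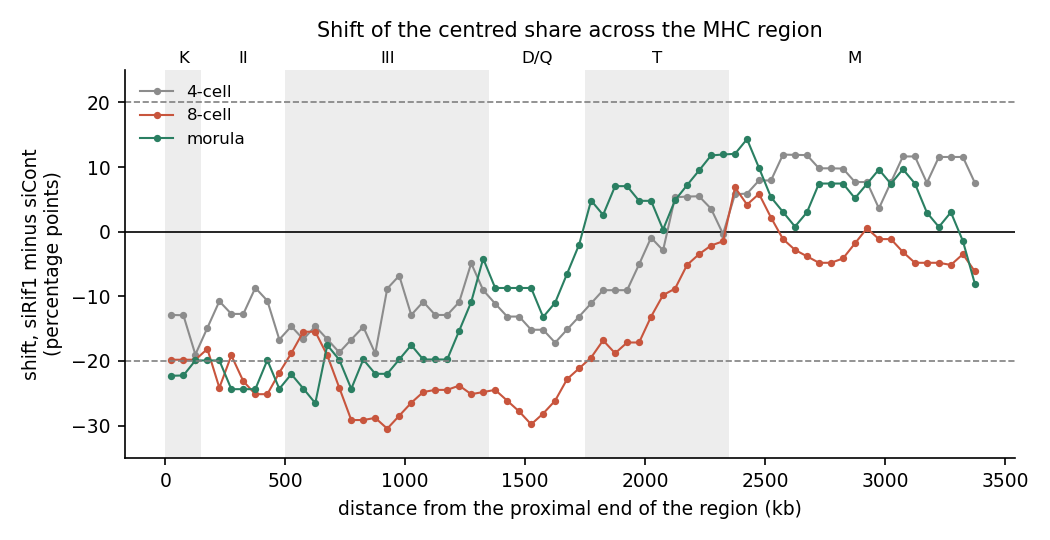
Shift of the centred share (percentage points, vertical axis) of each bin against distance from the proximal end of the region (kb), with 1 line for each stage and dashed lines at 20 points either way. From the H2-K end to H2-D/H2-Q all points lie below 0 at each stage, with the lowest at -30.5 points in the 8-cell line, and most distal points lie above 0 at the 4-cell and morula stages and below 0 at the 8-cell stage.

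Shifts along the MHC had a like outline at the 3 stages, although no cells were shared. Across the 68 bins their Pearson correlations were 0.88 between the 4-cell and 8-cell stages, 0.78 between 4-cell and morula and 0.79 between 8-cell and morula, given as a description. The neighbouring 3.4 Mb on the H2-K side had mean shifts of -2.60, -15.2 and -17.0 points, and on the H2-M side, over 58 used bins, 6.40, 3.76 and 5.78 points. The mean shifts of class II, class III and H2-D/H2-Q had the sign of the proximal side at each stage. At the 8-cell stage 28 of 33 distal bins were negative too, and the mean turned positive only in the flank beyond H2-M. The rest of chromosome 17 had mean shifts of 2.14, -3.13 and -3.13 points.

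To compare like with like, each part was set beside bins whose mean centred siCont share at the other 2 stages lay within 5 points of its own. For class II, those bins had mean shifts of 0.81, -3.29 and -1.94 points at the 3 stages, against -12.5, -22.4 and -22.5 in the part itself. For H2-D/H2-Q they had 0.52, -6.66 and -8.88 points, so its morula shift of -8.45 was close to that of bins with similar timing while its earlier shifts were larger. For the distal part they had 1.02, 5.58 and 9.45 points, and its own shifts were 4.98, -5.21 and 5.79. The 2 divisions of the distal part differed in this. For H2-T the comparison bins had 1.19, -0.68 and -1.06 points, against -2.31, -11.1 and 6.38 in H2-T itself. For H2-M they had 0.64, 9.73 and 12.1 points, against 9.15, -1.84 and 5.45. H2-M was thus less positive than bins of similar timing at the 8-cell and morula stages. These comparison bins were chosen after the shifts were known.

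The class I genes at both ends of the class II and III stretch are taken first. H2-K1 (chr17:33996012-34000619) had been copied in 25 of 49 siCont and 21 of 50 siRif1 4-cell cells, 36 of 60 and 17 of 50 8-cell cells, and 33 of 44 and 24 of 45 morula cells. The siRif1 share was the lower one at each stage, and the intervals overlapped at each (46.5 to 72.4% in siCont and 21.2 to 48.8% in siRif1 at the 8-cell stage). Its shifts were -12.9, -19.8 and -22.3 points.

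H2-D1 (chr17:35263094-35267497), the other classical class I gene, was replicated in 30 of 49 and 27 of 50 4-cell cells, 40 of 60 and 18 of 50 8-cell cells, and 29 of 44 and 26 of 45 morula cells, with siCont given first. The intervals at the 8-cell stage, 53.3 to 78.3% and 22.9 to 50.8%, did not overlap, and those of the other stages did. These intervals are on uncentred shares, and the mean over all used bins was 49.2% in siCont and 43.02% in siRif1 8-cell cells. Measured from those means, the 8-cell intervals of H2-D1 overlapped. Its shifts were -11.1, -24.5 and -8.72 points. H2-K1 and H2-D1 thus differed most in morulae, where siCont cells had replicated H2-K1 in 75% and H2-D1 in 65.9% of cells, and siRif1 cells in 53.3 and 57.8%.

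H2-Q6 (chr17:35424850-35430055) and H2-Q10 (chr17:35470089-35474563) are class I genes of the H2-Q cluster, and H2-Q10 encodes a secreted molecule made in liver. H2-Q6 had been copied in 31 of 49 siCont and 26 of 50 siRif1 4-cell cells, 42 of 60 and 17 of 50 8-cell cells, and 29 of 44 and 26 of 45 morula cells. Its 8-cell intervals were 56.8 to 81.2% and 21.2 to 48.8% and did not overlap. Measured from the group means of 49.2 and 43.02%, they did not overlap either. H2-Q10 had the same counts at the 4-cell stage, 41 of 60 and 17 of 50 at the 8-cell stage and 30 of 44 and 25 of 45 in morulae. Their 8-cell shifts, -29.8 and -28.2 points, were the lowest of the 8 genes, and their morula shifts were -8.72 and -13.2 points.

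H2-Aa and H2-DMb1 belong to class II. H2-Aa (chr17:34282744-34287823) encodes the alpha chain of the H2-A molecule, and H2-DMb1 (chr17:34153191-34160229) a chain of the H2-DM molecule that loads peptides onto it. H2-Aa had been copied in 19 of 49 siCont and 17 of 50 siRif1 4-cell cells, 32 of 60 and 11 of 50 8-cell cells, and 31 of 44 and 21 of 45 morula cells. Its 8-cell intervals, 39.997 to 66.3% and 11.5 to 35.96%, did not overlap. These too are on uncentred shares, and measured from the group means of 49.2 and 43.02% they overlapped. H2-DMb1 had 20 of 49 and 16 of 50, 32 of 60 and 14 of 50, and 31 of 44 and 21 of 45. Shifts of H2-Aa were -8.69, -25.2 and -24.4 points, and those of H2-DMb1 were -12.7, -19.2 and -24.4 points.

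In order of its share, H2-Aa stood at 22% in siRif1 8-cell cells, 34% in siRif1 and 38.8% in siCont 4-cell cells, 46.7% in siRif1 morulae, 53.3% in siCont 8-cell cells and 70.5% in siCont morulae. The intervals of each neighbouring pair in this order overlapped. H2-Q6 stood at 34% in siRif1 8-cell cells, 52% in siRif1 4-cell cells, 57.8% in siRif1 morulae, 63.3% in siCont 4-cell cells, 65.9% in siCont morulae and 70% in siCont 8-cell cells. All 3 siRif1 groups were below all 3 siCont groups for H2-Q6, and again neighbours overlapped.

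The distal genes H2-T23 and H2-M3 encode nonclassical class I molecules. H2-T23 (chr17:36029977-36032701) gives Qa-1, which shows the leader peptides of other class I molecules to natural killer cells. It had been copied in 19 of 49 siCont and 24 of 50 siRif1 4-cell cells, 27 of 60 and 15 of 50 8-cell cells, and 24 of 44 and 27 of 45 morula cells. Its shifts were 5.31, -8.82 and 4.87 points, and the intervals overlapped at every stage. H2-M3 (chr17:37270234-37274485), whose product binds formylated peptides of bacteria and mitochondria, had 13 of 49 and 19 of 50, 23 of 60 and 13 of 50, and 16 of 44 and 13 of 45. Its shifts were 7.55, -6.15 and -8.06 points, again with overlapping intervals. H2-M3 lay in the last bin of the region, and its morula shift was the lowest among the distal bins.

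**Figure D3:**
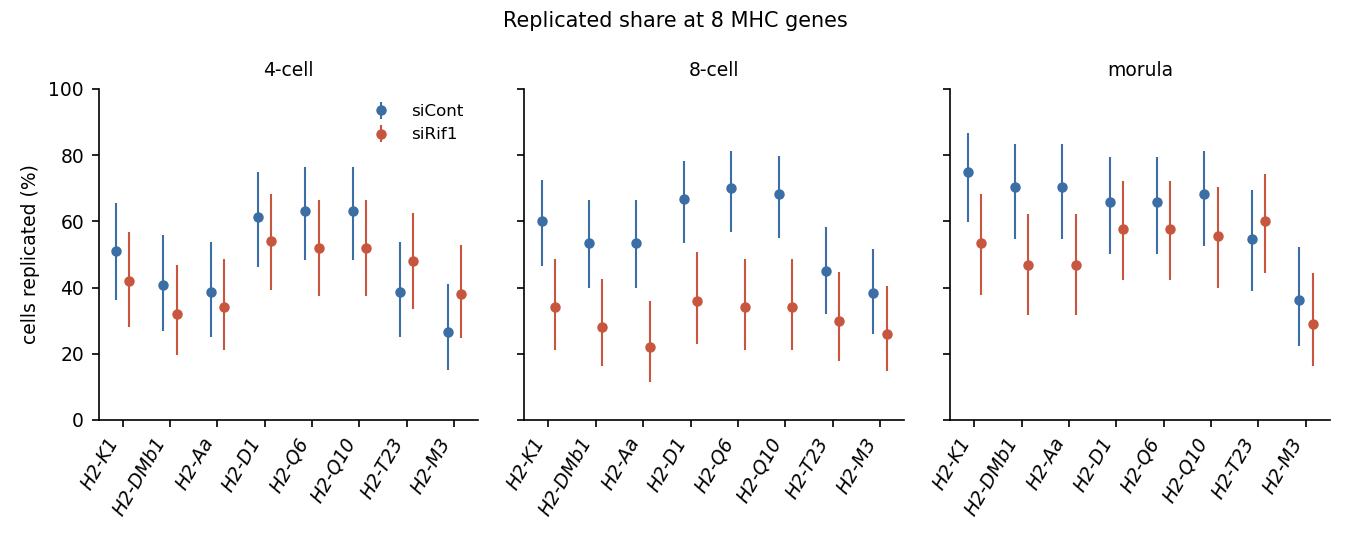
Replicated share (percent of measured cells) of the bins of the 8 listed genes in siCont (blue) and siRif1 (red) cells at the 3 stages; bars are exact 95% Clopper-Pearson intervals over cells. At the 8-cell stage H2-Q6 stood at 70% in siCont and 34% in siRif1 cells, while at H2-M3 the values were 38.3 and 26%.

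Of the 8 genes, 0 at the 4-cell stage, 4 at the 8-cell stage and 3 in morulae were at least 20 points later, beside 3.07, 18.2 and 9.98% of all 19406 protein-coding genes. None of the 172 MHC genes was at least 20 points earlier, beside 0.953, 0.989 and 1.14% of protein-coding genes. Genes as a whole leaned to negative shifts, with medians of -2.31, -7.49 and -8.04 points, while the 172 genes of the MHC had medians of -10.8, -19.8 and -11.0 points over 61 bins. These counts cover few independent measurements, since runs of 1 state span many bins.

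The other genes of the MHC were read by list. The 12 further class II genes lay in 6 bins and all had negative shifts at each stage, beside 59.6, 71.9 and 74.8% of all protein-coding genes, with medians of -11.8, -23.7 and -22.2 points. Their 8-cell shifts ran from -25.2 points at H2-Ab1, the partner chain of H2-Aa in the same bin, to -18.2 points at H2-Oa, a chain of a modulator of peptide loading. Tap1, a subunit of the peptide transporter, and Psmb8 and Psmb9, subunits of the immunoproteasome, lay in the bin of H2-DMb1 and shared its values. In morulae class II genes ran from -24.4 points at H2-Ob to -19.9 points at H2-Eb1.

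The 22 class III genes lay in 12 bins, all with negative shifts at each stage (59.6, 71.9 and 74.8% of all protein-coding genes) and medians of -10.9, -24.8 and -19.8 points. The lowest 8-cell value was that of Cyp21a1, the steroid 21-hydroxylase, at -30.5 points, and the highest that of Notch4, a Notch receptor, at -19.2 points. In morulae the lowest was Atf6b, a transcription factor of the unfolded protein response, at -24.3 points. The highest was Ddx39b, an RNA helicase of mRNA export, at -4.17 points, in the same bin as Tnf and Lta beside H2-D1, where the class III mean was -19.1. The 6 genes listed for the H2-K end, which include Tapbp, the tapasin of the peptide-loading complex, had medians of -13.9, -19.8 and -21.1 points. Col11a2 of this list lies by its midpoint in the first class II bin. Over the list the 8-cell shifts ran from -19.8 points at Tapbp to -18.2 points at Col11a2, and the morula shifts from -22.3 points at Tapbp to -19.9 points at Ring1.

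The H2-D/H2-Q list of 7 genes had medians of -15.1, -26.2 and -8.72 points. Its lowest 8-cell value was that of H2-Q7, at -29.8 points, in the bin of H2-Q6, and its highest that of Cdsn, at -22.8 points. Pou5f1, the Oct4 gene of pluripotent cells, lies in this part and had shifts of -17.2, -26.2 and -11.0 points. In morulae it was the lowest of the list and Cdsn, at -6.50 points, the highest. Of 16 distal genes 15 were found and measured, in 13 bins, with medians of 7.55, -4.82 and 7.04 points. Positive were 12, 2 and 15 of them, beside 40.4, 28.1 and 25.2% of protein-coding genes. Their 8-cell shifts ran from -19.5 points at Ddr1, a collagen receptor gene at the H2-D/H2-Q border with a 4-cell shift of -11.1 points, to 6.85 points at Trim39. In morulae all 15 were positive, from 0.78 points at H2-M11 to 12.04 points at Trim39.

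Genes of antigen presentation elsewhere in the genome had smaller median shifts than MHC genes. Over 24 such genes in 23 bins the median shifts were -6.16, -8.15 and -6.34 points, and 18, 20 and 18 had a negative shift, beside 59.6, 71.9 and 74.8% of all protein-coding genes. B2m, the light chain of every class I molecule, had been copied in 36 of 49 siCont and 30 of 51 siRif1 4-cell cells, 42 of 60 and 28 of 50 8-cell cells, and 35 of 44 and 27 of 45 morula cells. Its shifts were -18.6, -7.82 and -20.1 points, and the last was the lowest of the list in morulae. At the 8-cell stage the lowest was Fcgrt, the neonatal Fc receptor, at -23.6 points and the highest Hfe, an iron-regulating class I relative, at 9.18 points. Rfxank, a subunit of the factor that binds class II promoters, was highest in morulae at 6.74 points.

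The likest patterns elsewhere were taken as the 3 protein-coding genes off chromosome 17, in different bins, whose 6 centred shares had the smallest root mean square difference from a part. For class II these were Ccdc185 (2.99 points), Nod2 (3.46 points) and Bet1l (3.62 points). For the distal part they were Tenm4 (3.12 points), Slc31a1 (3.38 points) and Igf2 (3.58 points). Each likeness was over 6 groups.

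Changes between stages differed by part. In siCont cells the centred share of class II rose by 10.2 points from the 4-cell to the 8-cell stage and by 15.3 points from there to the morula. H2-M rose by 14.3 and 2.32 points. H2-D/H2-Q had changes of 2.85 and -1.49 points, whose signs turned under some alternatives. At least 20 points earlier were 0 of the 68 bins in the first step, against 3.23% of all used bins, and 4 in the second, against 3.76%, all in class III.

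In siRif1 cells the first step had changes of 0.29 points in class II, -8.81 in H2-D/H2-Q, -7.90 in H2-T and 3.34 in H2-M. In the second step the centred share rose, by 15.3 points in class II, 15.9 in H2-D/H2-Q, 21.9 in H2-T and 9.61 in H2-M. Logistic midpoints, which rest on the falling 8-cell curves, gave -73.6 points for class II and -73.1 for class III in this step, and 92.2 and 90.8 in the first. At least 20 points earlier were 0 of 68 bins in the first step, against 2.34%, and 8 in the second, against 6.87%. Those 8 were 6 of H2-T and 2 of class III. Among those H2-T bins only that of H2-T23 held H2-T genes. No MHC bin was at least 20 points later in any of the 4 steps, where 6.13 and 3.36% of all used bins in siCont and 1.7 and 4.59% in siRif1 cells were. The steps share the 8-cell group and are therefore not independent.

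A part was called replicated in a cell when more than 50% of its measured bins had state 1. H2-D/H2-Q was of 1 state throughout in 47 of 49 siCont and 45 of 50 siRif1 4-cell cells, and class II in 44 and 42. Of both states were class III in 15 of 49 siCont 4-cell cells, H2-T in 21 and the distal part in 32. Class II and H2-D/H2-Q, with 7 and 8 bins, are shorter than the median run of 24 to 29 bins. Wholly unreplicated over the MHC were 9 of 49 and 11 of 50 4-cell cells, 7 of 60 and 19 of 50 8-cell cells, and 5 of 44 and 10 of 45 morula cells. Wholly replicated were 1 of 49 siCont and 2 of 50 siRif1 4-cell cells, 7 of 60 and 0 of 50 8-cell cells, and 9 of 44 and 3 of 45 morula cells. The siRif1 8-cell group also lacked cells late in S phase, and the part of this in the counts was not tested. The shift of class II at that stage was -25.4 points with cells paired within 5 points of percent replicated.

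The order of parts can be read from cells in which exactly 1 of a pair was replicated. Such cells were taken at any depth into S phase. The depths differed between groups, and this was not corrected for. Class II was the replicated one, with H2-M not, in 13 of 14 such siCont 4-cell cells, 18 of 25 8-cell cells and 16 of 17 morula cells. In siRif1 cells the counts were 10 of 19, 8 of 19 and 8 of 15. Intervals for siCont and siRif1 were 66.1 to 99.8% and 28.9 to 75.6% at the 4-cell stage, 50.6 to 87.9% and 20.3 to 66.5% at the 8-cell stage, and 71.3 to 99.9% and 26.6 to 78.7% in morulae, and they overlapped at each stage.

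H2-D/H2-Q was ahead of H2-M in 25 of 27, 23 of 26 and 16 of 19 discordant siCont cells and in 17 of 23, 9 of 16 and 12 of 19 discordant siRif1 cells. Against H2-T, its distal neighbour, it was ahead in 8 of 9, 12 of 13 and 5 of 7 siCont cells and in 4 of 7, 3 of 6 and 3 of 8 siRif1 cells. All 6 of these siRif1 shares were below the siCont share of the same stage, with overlapping intervals for each pair.

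**Figure D4:**
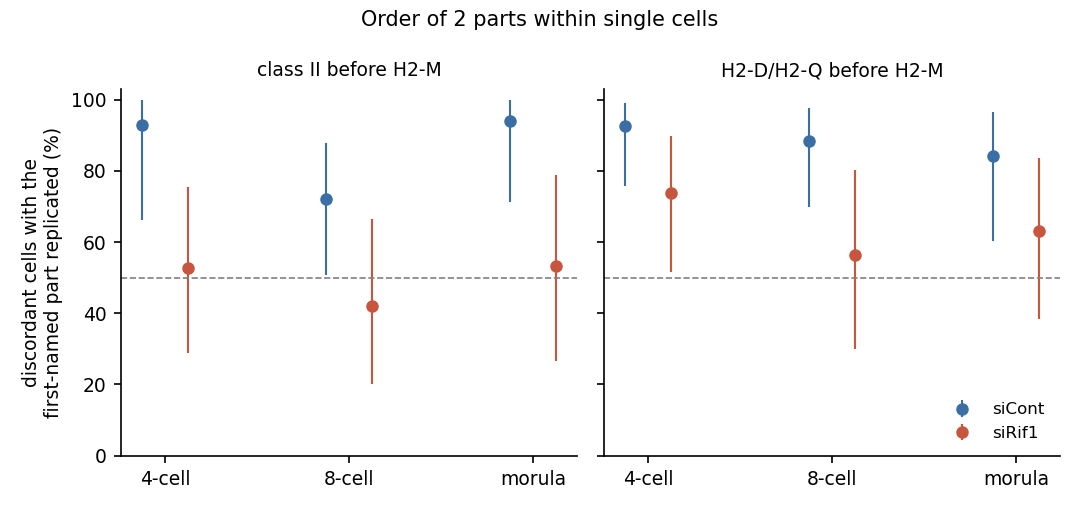
Percent of discordant cells (exactly 1 of both parts replicated) in which the first-named part was the replicated one, for class II against H2-M and for H2-D/H2-Q against H2-M, in siCont (blue) and siRif1 (red) cells at the 3 stages; bars are exact 95% Clopper-Pearson intervals and the dashed line marks equal numbers. Class II was ahead in 92.9% of 14 siCont and 52.6% of 19 siRif1 4-cell cells.

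The same was looked at within classes of percent replicated, whose numbers of cells are small. Among 8-cell cells of 20 to 40% class II was replicated in 8 of 17 cells given siCont and 5 of 17 given siRif1, at 40 to 60% in 12 of 24 and 6 of 21, and at 60 to 80% in 10 of 13 and 1 of 9. Below 20% it was replicated in 0 of 3 8-cell cells of either treatment, and above 80% there was no siRif1 8-cell cell. In the 3 classes from 20 to 80% the siRif1 share of class II was the lower one in each. In the last of these classes the intervals were 46.2 to 94.96% and 0.28 to 48.2%, which overlapped. H2-M at the 8-cell stage was replicated in 1 of 17 and 4 of 17, 10 of 24 and 7 of 21, and 7 of 13 and 4 of 9 cells of these classes, with no 1 direction. At the 4-cell stage class II was replicated in 6 of 15 and 4 of 12, 5 of 11 and 5 of 22, and 6 of 13 and 6 of 12 cells of the 3 classes, so in the last the siRif1 share was not the lower. In morulae the counts were 5 of 10 and 6 of 16, 17 of 24 and 6 of 13, and 7 of 8 and 7 of 14.

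The place where the replicated block ended on the distal side was read in cells that had replicated the bin of H2-Q6. These were 31, 42 and 29 siCont and 26, 17 and 26 siRif1 cells at the 4-cell, 8-cell and morula stages. Cells in which the block ran on to the region's end gave no such place and are not in the medians and quartiles. The median end lay 2150, 2150 and 2250 kb from the proximal end of the region in siCont 4-cell, 8-cell and morula cells, over 28, 33 and 19 cells. In siRif1 cells it lay at 2250, 2300 and 2350 kb, over 24, 14 and 19 cells. Over the cells with an end inside the region, all 6 medians fell at or within the H2-T part, which spans 1750 to 2350 kb. With the other cells counted the medians would lie at the same place or further distal, which was not computed. The quartiles of both treatments overlapped at each stage, for example 1800 to 2300 kb and 2100 to 2387.5 kb at the 8-cell stage.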

How the data were processed

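Single cells of 6 groups (416 labelled cells, 299 with a column) were measured by whole-genome amplification and sequencing. The deposited tables, 1 per group, held other values than counts: 0, 1 or NA per cell in bins of 50 kb. Per the submitters' processing notes, the build was GRCm38 and the tools were R 4.2.3, bedtools, Picard, SAMtools and Bowtie2 2.5.1, without stated roles. The step from reads to states is not stated, and read depth is unknown, so no depth per value can be given. Bins with at least 10 measured cells in every group were used. Shares, centred shares and shifts were computed with Python 3.11.15, numpy 2.4.6 and pandas 2.3.3, and intervals with scipy 1.17.1. The procedure was tested on simulated data, whose setting and outcome are not given here. No conclusion is drawn from that test on neighbouring bins that share a state, or on groups at unlike points of S phase. Genes were placed by midpoint through RefSeq (GRCm38.p6). Each group is 1 sample, so sizes are given with no test.

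The members and lists were chosen with earlier results of these data known. The text names the 8 listed genes and, for each list, the lowest and highest shift at the 8-cell and morula stages; other genes (such as Tap1, Psmb8, Psmb9, Pou5f1, Tnf and Lta) were named after their values were seen. The comparison bins of similar timing, the pairs of parts, the classes of percent replicated, the reference bin of the block's end, the motif letters and the promoters shown were also chosen after values were seen. Alternatives changed the cells used, the centring, the cell minimum, the borders, the threshold, the reading of a gene, and the measure (percentile ranks, logistic midpoints).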

Additional observations from a re-analysis of the deposited data

Results flagged for a closer look

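Values of opposite sign at 2 stages, or in both treatments, are listed here. None of these differences was tested, since each group is 1 sample.

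From the 4-cell to the 8-cell stage the shift of the distal part went from 4.98 to -5.21 points, a difference of -10.2 points. The H2-M part went from 9.15 to -1.84 points (difference -10.99). H2-T23 went from 5.31 to -8.82 points (difference -14.1), and H2-M3 from 7.55 to -6.15 points (difference -13.7). Between the 4-cell stage and the morula the H2-T part went from -2.31 to 6.38 points (difference 8.70) and H2-M3 from 7.55 to -8.06 points (difference -15.6).

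Between the 8-cell stage and the morula the H2-T part went from -11.1 to 6.38 points, a difference of 17.5 points. The distal part went from -5.21 to 5.79 points (difference 11.01), the H2-M part from -1.84 to 5.45 points (difference 7.29) and H2-T23 from -8.82 to 4.87 points (difference 13.7).

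The change from the 4-cell to the 8-cell stage had opposite signs in siCont and siRif1 cells for the whole MHC, at 7.87 and -2.50 points (difference -10.4). For class III it was 6.59 and -4.68 points (difference -11.3). For H2-D/H2-Q it was 2.85 and -8.81 points (difference -11.7). For the distal part it was 9.45 and -0.74 points (difference -10.2), and for H2-T 0.92 and -7.90 points (difference -8.81). The siCont value of H2-T changed sign in 3 of 7 alternatives, down to -3.72 points, and 7 of its 12 bins were negative. From the 8-cell stage to the morula H2-D/H2-Q changed by -1.49 points in siCont and 15.9 points in siRif1 cells (difference 17.4).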

How the results depend on the processing

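No paired analysis was possible because the numbers shared by the labels are cell numbers within a group and no result comes from a test. Of 406 alternative values, 379 stayed within the counting interval of the main value or within 1.5 times a count, 25 moved and 2 reversed. Another sign or, for counts, a step from or to 0 was seen in 19. A value within the interval counted as unmoved even where its sign changed. Some alternatives could hardly differ. All listed genes but H2-K1 lie within 1 bin, and each MHC bin had 44 or more measured cells, above the raised minimum of 20. The tally is therefore no measure of robustness. Both reversals and 13 of the moves came from the planned logistic midpoints (the percent of the genome replicated at which a part reaches 50%) that involve siRif1 8-cell cells. At the 8-cell stage these gave shifts of 64.2 points in class II, 61.3 in class III, -88.8 in H2-D/H2-Q, -55.4 in H2-T and -69.4 over the MHC. The siRif1 stage changes were 92.2 then -73.6 in class II, 90.8 then -73.1 in class III, -60.2 then 73.0 in H2-D/H2-Q and -51.0 then 69.3 over the MHC. Of 42 fitted curves, 5 did not rise through 50% between 0 and 100% replicated, all of siRif1 8-cell cells; 2 of them, class II and class III, fell with percent replicated and so put the midpoint at -19.7 and -17.4%. That group held no cell above 66.5%. Outside them, percentile ranks gave -40.9 points in class II and -45.4 in H2-D/H2-Q at the 8-cell stage, on a scale of ranks. Bins at least 20 points later numbered 2 at the 4-cell stage and 22 in morulae with cells of 20 to 80%, and 1 at the 4-cell stage with paired cells, where 1 morula bin was earlier. At 30 points they numbered 1 at the 8-cell stage and 0 in morulae. Outside the curves that did not rise through 50%, class II shifts ranged from -26.0 to -11.1, -40.9 to -19.3 and -26.1 to -19.2 points at the 3 stages. The alternatives with paired cells for counts and with the bin at the upper border were added after seeing the data.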
